A study of Mus musculus with 2 samples.

Results

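The genes described here are 9 secreted factors and receptors that act on neutrophils: the ligands Cxcl1, Cxcl2, Cxcl3 and Cxcl5, their receptor Cxcr2, the growth factor Csf3 and its receptor Csf3r, and the ligand Cxcl12 with its receptor Cxcr4. They were chosen by symbol and not by a cutoff on their values, but with earlier results of these data known. All 9 were found among the 55450 genes of the deposited tables. They were followed across tumor, fibroblast, macrophage and neutrophil cells of single-cell RNA sequencing libraries from EMT6 tumors, a mouse mammary tumor line of which 200000 cells were injected per BALB/c mouse. Mice of both groups received Olaparib, a PARP inhibitor, at 50 mg/kg daily. They also received LLY-283, a PRMT5 inhibitor, at 50 mg/kg in cycles of 3 days on and 4 days off. The Olaparib + LLY-283 group, here the dual-inhibitor group, received nothing further. The Combo group also received anti-PD-1, an antibody to an inhibitory T cell receptor, at 200 µg every 3 days. In each group the tumors of 3 mice were pooled into 1 sample and sequenced as 1 library, and neither an untreated group nor an anti-PD-1 group without the inhibitors was analysed here. Treatment, pool of mice and library therefore cannot be told apart, no test between the groups was possible, and every interval given is a 95% interval of counting error only.

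CXCL1, CXCL2, CXCL3 and CXCL5 are small secreted chemokines that bind CXCR2 on neutrophils and draw these cells from the blood into tissue. G-CSF, the product of Csf3, drives the formation of neutrophils in the bone marrow and their release, through the receptor encoded by Csf3r. CXCL12, made by stromal cells, holds CXCR4-bearing neutrophils in the marrow, and CXCR4 is known to return to the surface of aged neutrophils.

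Cxcl5, Cxcl3, Cxcl1 and Cxcl2 lie in this order on the plus strand of chromosome 5 in GRCm38, from 90759360 to 90905938, a stretch of 146.579 kb that also holds Ppbp, Pf4 and Cxcl15 among its 7 protein-coding genes (GENCODE M21). Csf3 lies on chromosome 11 (98701263 to 98703629, plus strand), Csf3r on chromosome 4 (126024550 to 126044440, plus strand) and Cxcl12 on chromosome 6 (117168535 to 117181367, plus strand). Cxcr2 (74153989 to 74161246, plus strand) and Cxcr4 (128588199 to 128592293, minus strand) are on chromosome 1. No annotated gene overlapped any of the 9 genes. In the last 600 bases of the longest transcript, where 3′ reads fall, 0 of 551 words of 50 bases were shared with another gene for 7 members, while 10.9% of the words of Csf3r and 3.63% of those of Cxcr2 were, so reads of these receptors could in part be lost as ambiguous.

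RefSeq promoters (GRCm38.p6, 250 bases before to 50 after the start) were at hand for 7 of the 9 members, not for Csf3 and Cxcl5. The windows of Cxcl3, Cxcl1 and Cxcl2 are shown because these neighboring ligands are compared throughout. The longest word that the 3 promoters shared before the start had 11 letters, GGGAATTTCCC, which contains a motif of the κB kind, bound by NF-κB. It occurred 1 time in each, on the gene's strand, and is given in capitals. It begins 73, 71 and 97 bases upstream of the start in Cxcl3, Cxcl1 and Cxcl2. The word was picked from these promoters, and a search on both strands, as GGGAATTTCCC and GGGAAATTCCC, found it in 14 of 32851 promoters (0.0426%). It was not among the letters of the promoters of Cxcl12, Csf3r, Cxcr2 and Cxcr4. The windows run 5′ to 3′ on the plus strand, at chr5:90785988-90786098 for Cxcl3, chr5:90891134-90891244 for Cxcl1 and chr5:90903762-90903872 for Cxcl2.
Cxcl3: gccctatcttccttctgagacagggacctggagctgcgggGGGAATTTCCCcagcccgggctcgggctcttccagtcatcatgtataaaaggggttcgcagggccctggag
Cxcl1: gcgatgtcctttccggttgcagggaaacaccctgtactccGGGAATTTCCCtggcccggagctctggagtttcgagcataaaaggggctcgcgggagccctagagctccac
Cxcl2: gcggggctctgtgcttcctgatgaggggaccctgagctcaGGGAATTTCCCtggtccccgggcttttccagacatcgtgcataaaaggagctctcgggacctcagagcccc

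The libraries stood apart in depth and quality. The dual-inhibitor library held 16115 cells and 147214934 unique molecular identifiers (UMIs, the captured transcripts counted), and the Combo library 7542 cells and 162522700 UMIs. Cells with at least 20% mitochondrial UMIs made up 0.534% of the former and 21.0% of the latter and were left out. After doublet removal 13974 and 5672 cells were kept, with medians of 6920 and 13632.5 UMIs, and 39 cell barcodes occurred in both libraries. Clusters were named from marker lists that excluded the 9 genes, and names end in "-like" because they rest on markers alone. The markers that stood over 2-fold above other cells were 12 of 12 for the neutrophil-like class, 14 of 14 for the macrophage-like class and 9 of 10 for the class like cancer-associated fibroblasts (CAF). Tumor-like clusters were set by the keratins Krt8 and Krt18. Krt7 also stood over 2-fold higher there, while Epcam and Krt19 did not.

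Neutrophil-like cells numbered 626 in the dual-inhibitor library and 964 in the Combo library. Their share of the non-tumor cells was 27.5% (25.7 to 29.4%, of 2278 cells) and 40.5% (38.6 to 42.5%, of 2378 cells). The Combo share was the higher one in each of 9 alternative settings, but the values ranged from 1.05 to 28.7% and from 23.8 to 59.5%, so the shares themselves depend on the cell filter and on how classes are drawn. These settings reuse the same 2 libraries, and the difference in share was known when the genes were chosen. Deposited cells begin at 500 UMIs, and 585 of the 626 and 102 of the 964 neutrophil-like cells held under 1000. The effect of this floor on the shares was not tested. A cluster of 28 and 451 cells, N1, carried neutrophil genes such as Il1f9 and Hcar2 and had 12 of 12 neutrophil markers over 2-fold. Being shallow and without a marker among its 10 leading genes, it stayed unnamed under the naming rule. Its cells are left out of the neutrophil-like values unless stated. Tumor-like cells numbered 10860 and 2550, macrophage-like cells 994 and 677, and CAF-like cells 240 and 63. Median UMIs per cell were 642.5 and 1989.5 in neutrophil-like, 1917.5 and 10648 in macrophage-like, 3885.5 and 20711 in CAF-like and 8584.5 and 49125 in tumor-like cells, so levels are given as CPM, the UMIs of a gene per 1000000 UMIs of the class. These UMIs are not divided by transcript length, and levels are compared between classes and libraries, not between genes.

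Among classes of at least 20 cells in a library, each member had its highest level in tumor-like, CAF-like, macrophage-like or neutrophil-like cells of both libraries, with 1 exception. Neutrophil-like cells led for Cxcl2, Cxcl3, Csf3r and Cxcr2 in both libraries, and CAF-like cells for Cxcl5 and Cxcl12. Cxcl1 was led by macrophage-like cells in the dual-inhibitor library and by CAF-like cells in the Combo library, and Cxcr4 by macrophage-like and then neutrophil-like cells. Below this minimum, the 15 endothelial-like cells of the Combo library stood higher for Cxcr4, at 142 CPM on 19 UMIs. The exception was Csf3, which was highest in endothelial-like cells of the dual-inhibitor library, on 6 UMIs in 40 cells, and in neutrophil-like cells of the Combo library, on 21 UMIs. The CAF-like leads for Cxcl1 and Cxcl5 in the Combo library rested largely on a few cells, whose shares of the UMIs are given below. The order of classes without these cells is not given here. Some leading classes also changed under other settings, as listed in the closing section.

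**Figure D1:**
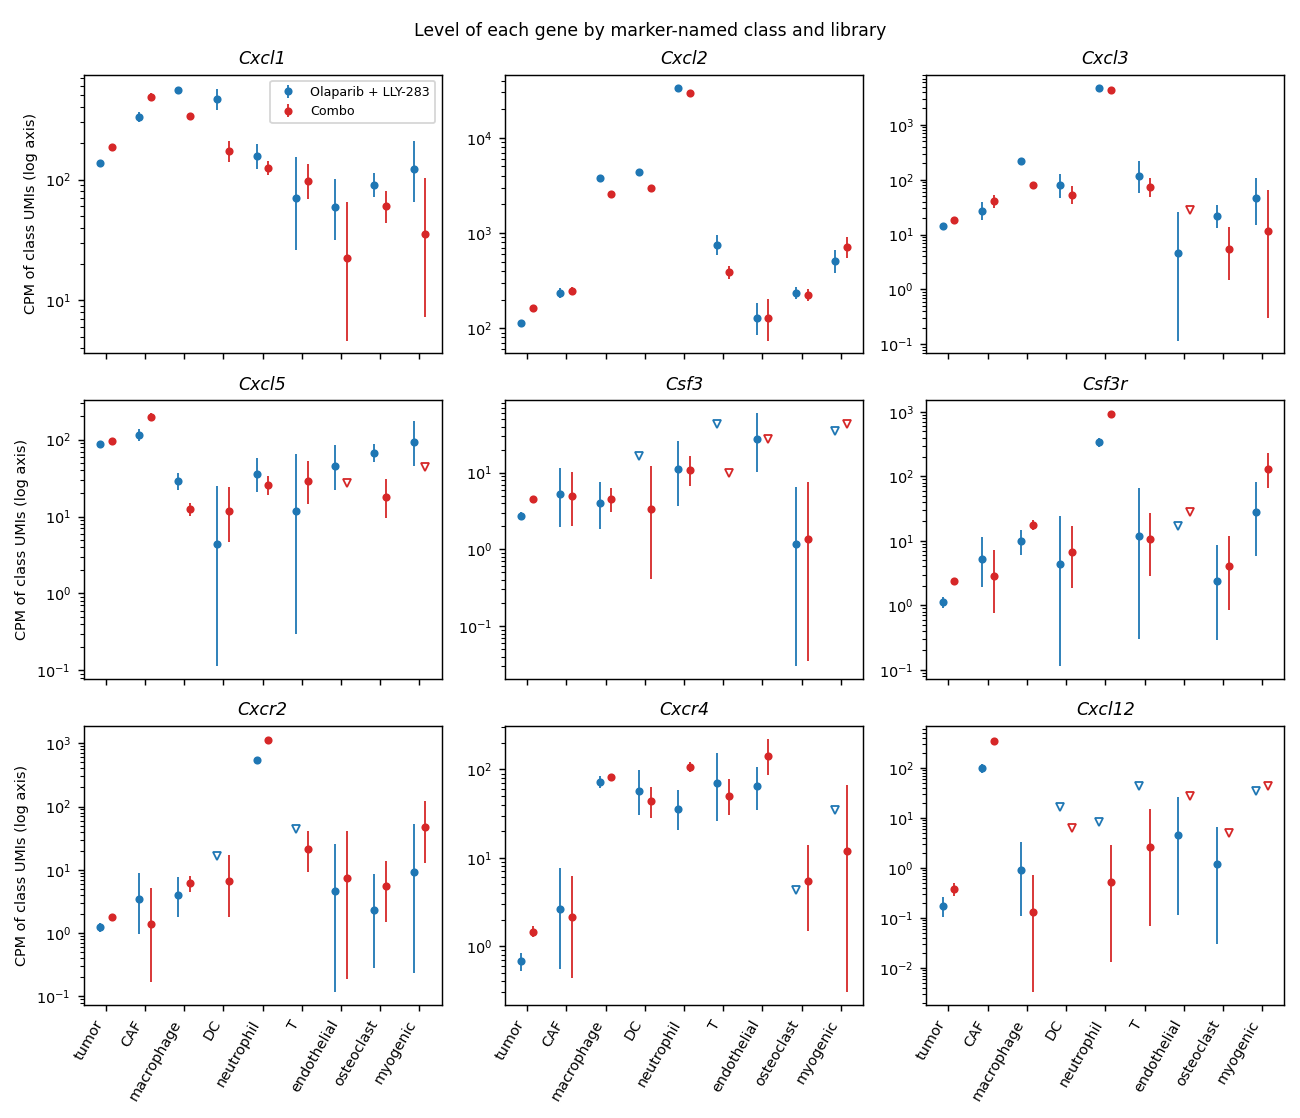
Level of each of the 9 genes by cell class in both libraries, as CPM of the class on a log axis, with exact Poisson intervals. Open triangles are the upper limit where a class held 0 UMIs. Cxcl2, Cxcl3, Csf3r and Cxcr2 stand highest in neutrophil-like cells and Cxcl12 in CAF-like cells.

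Cxcl2 was the ligand that neutrophil-like cells themselves carried. Its level there was 33486 CPM (32950 to 34028; 14910 UMIs) in the dual-inhibitor library and 29865 CPM (29622 to 30110; 57535 UMIs) in the Combo library, a ratio of 0.892 (0.876 to 0.908). In N3 and N7, the neutrophil clusters that both libraries filled, the ratio was lower, with 39782 and 23862 CPM in N3 (0.60) and 21961 and 10632 CPM in N7 (0.484). The class levels stood 7.71 and 10.2 times above the class that came next, DC-like (dendritic) cells at 4343 and 2939 CPM. Macrophage-like cells followed at 3807 and 2560 CPM, a ratio of 0.672 (0.656 to 0.690), and DC-like and macrophage-like intervals did not overlap in either library. A Cxcl2 UMI was found in 96.2% of neutrophil-like cells of both libraries, and in 94.9% and 92.9% after each cell was thinned to 500 UMIs. In tumor-like cells the thinned share was 5.03% and 6.75%.

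Cxcl3 was likewise highest in neutrophil-like cells, with a wide gap to every other class. It stood at 4685 CPM (2086 UMIs) and 4350 CPM (8380 UMIs) there, a ratio of 0.928 (0.885 to 0.975), which was 21.3 and 53.2 times the level of macrophage-like cells, the next class. Macrophage-like cells had 220 CPM (201 to 240) in the dual-inhibitor library and 81.7 CPM (75.5 to 88.3) in the Combo library, so the Combo level was 2.69 times lower. The 5 cells with the most Cxcl3 held 33.7% and 28.6% of these macrophage-like UMIs. After thinning, 6.50% and 3.36% of macrophage-like cells carried a Cxcl3 UMI, beside 0.768% and 0.861% of tumor-like cells. Each macrophage-like cluster, of which there were 6, had less Cxcl3 in the Combo library, with ratios from 0.0264 to 0.733.

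Cxcl1 had no single source. In the dual-inhibitor library macrophage-like cells stood at 553 CPM (522 to 584; 1241 UMIs), DC-like cells at 465 (381 to 563), CAF-like cells at 331 (299 to 367), neutrophil-like cells at 157 (123 to 199) and tumor-like cells at 138 (136 to 140). In the Combo library the order was CAF-like at 483 CPM (448 to 521), macrophage-like at 335 (322 to 348; 2621 UMIs), tumor-like at 188 (185 to 190), DC-like at 173 (141 to 209) and neutrophil-like at 126 (110 to 142). The intervals of macrophage-like and DC-like cells overlapped in the first library, as did those of neutrophil-like and tumor-like cells, while CAF-like, macrophage-like and tumor-like cells were apart in the second. Against the dual-inhibitor library, Combo macrophage-like cells had 0.607 times (0.567 to 0.649) the Cxcl1 level, DC-like cells 0.371 times, CAF-like cells 1.46 times (1.28 to 1.66) and tumor-like cells 1.36 times (1.34 to 1.39). In CAF-like cells 1 Combo cell held 131 of the 682 UMIs and 5 cells held 50.7%. Tumor-like cells, the most numerous and deepest class, held 88.1% and 85.8% of all Cxcl1 UMIs of the libraries.

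Within macrophage-like cells Cxcl1 was highest in cluster N12, led by the interferon-inducible genes Cxcl9 and Cxcl11, at 798 CPM (62 cells) and 674 CPM (86 cells). The same cluster was highest for Cxcl2, at 6650 and 5038 CPM, and for Cxcl3, at 444 and 201 CPM. Cxcl1 was lower in the Combo library in each of the 6 clusters, with ratios from 0.243 in N5 (336 and 46 cells) to 0.844 in N12. The intervals of N12 and of N9, a cluster led by Lyve1 and Cd163, reached 1. Cxcl2 was lower in 5 of these clusters, and in N9 it stood at 1959 and 1983 CPM.

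Cxcl5 was carried by CAF-like and tumor-like cells. CAF-like cells had 115 CPM (96.3 to 137; 131 UMIs) and 197 CPM (175 to 222; 278 UMIs), a ratio of 1.71 (1.38 to 2.12), and the 5 Combo cells with the most Cxcl5 held 73.0% of its UMIs. Tumor-like cells had 86.8 CPM (85.1 to 88.6) and 97.0 CPM (95.4 to 98.7), a ratio of 1.12 (1.09 to 1.15), and held 95.8% and 95% of all Cxcl5 UMIs. CAF-like and tumor-like intervals were apart in both libraries. In the dual-inhibitor library a class of 39 myogenic-like cells lay between them, and its interval overlapped both. Elsewhere the level was low. Macrophage-like cells had 28.9 and 12.4 CPM and neutrophil-like cells 35.9 and 25.4 CPM. As a share of the tumor-like level, Cxcl5 reached 41.4% and 26.2% in neutrophil-like cells, and Krt8, a keratin of epithelial cells, 46.7% and 25.4%. In macrophage-like cells the shares were 33.3% and 12.8% for Cxcl5 and 21.8% and 12.3% for Krt8. The part of RNA from tumor cells in the lower Cxcl5 level of Combo macrophage-like cells (ratio 0.429, 0.310 to 0.596; 65 and 97 UMIs) was not tested.

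Csf3 was rare in every class. Tumor-like cells held 307 and 604 of the 336 and 692 Csf3 UMIs, at 2.75 CPM (2.45 to 3.07) and 4.59 CPM (4.23 to 4.97), a ratio of 1.67 (1.45 to 1.92). A Csf3 UMI was found in 1.80% and 9.33% of tumor-like cells, but in 0.153% and 0.204% once each cell was thinned to 500 UMIs. Neutrophil-like cells gave 5 and 21 UMIs (11.2 and 10.9 CPM), CAF-like cells 6 and 7, and macrophage-like cells 9 and 35, of which 23 in the Combo library came from cluster N12. In the Combo library the intervals of neighboring classes overlapped all along the order of Csf3 levels among the 5 highest. Endothelial-like cells had 27.5 CPM (10.1 to 59.9) in the dual-inhibitor library, an interval that overlapped that of neutrophil-like cells, and the 15 endothelial-like cells of the Combo library held 0 Csf3 UMIs.

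**Figure D2:**
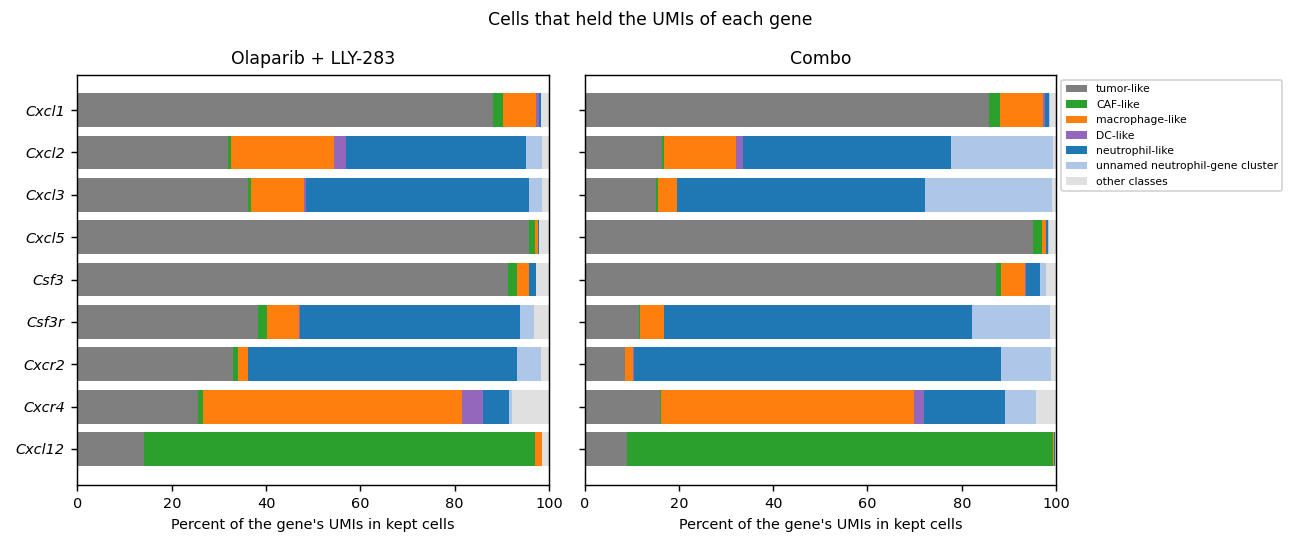
Share of each gene's UMIs, in percent of all its UMIs in the kept cells of a library, held by each cell class. Tumor-like cells held over 85% of the Cxcl1, Cxcl5 and Csf3 UMIs of both libraries, CAF-like cells 82.8% and 90.4% of the Cxcl12 UMIs, and neutrophil-like cells the largest share of Cxcl2, Cxcl3, Csf3r and Cxcr2.

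Low levels of the neutrophil genes in tumor-like cells were set beside S100a8 and S100a9, abundant cytosolic proteins of neutrophils. In tumor-like cells S100a8 stood at 0.206% and 0.214% of the neutrophil-like level and S100a9 at 0.197% and 0.227%. Csf3r stood at 0.327% and 0.258%, Cxcr2 at 0.231% and 0.159%, and Cxcl3 at 0.304% and 0.422%. Cxcl2 stood at 0.335% and 0.547%, further above the S100a8 share. The part of RNA from neutrophils in these tumor-like levels was not tested.

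The ligands varied among tumor-like clusters, by a factor of 7.13 and 9.33 for Cxcl1 where the libraries differed by 1.36. Among clusters of at least 100 cells (11 and 9), Cxcl1 ranged from 35.9 CPM in T8 to 256 in T6 in the dual-inhibitor library and from 35.5 in T2 to 331 in T15 in the Combo library. T6 was led by Adm, Pgf, F3 and Hilpda, genes known to respond to low oxygen or stress, T15 by Il24, Serpinb5 and Hgf among others, and T8 by histone and mitotic genes such as Aurkb. Cxcl2 ranged from 65.5 CPM (T8) to 248 (T6) and from 72.7 (T2) to 284 (T6), and Cxcl5 from 47.8 (T8) to 152 (T15) and from 57.4 (T8) to 164 (T12). Csf3 stood at 7.69 and 10.8 CPM in T6 and 12.1 and 11.4 CPM in T15, and at 5 CPM or less in each other cluster of this size. S100a9 did not have its highest level in the same clusters as Cxcl1, Cxcl2 and Csf3. It was highest in T12, at 215 and 221 CPM, where Cxcl5 and Cxcl3 (27.2 CPM) were also highest in the Combo library. In T6 and T15 S100a9 lay at 140 and 79.2 CPM in the first library and at 133 and 130 CPM in the second. In T6 Cxcl2 reached 0.741% and 0.951% of the neutrophil-like level while S100a8 reached 0.299% and 0.218%.

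**Figure D3:**
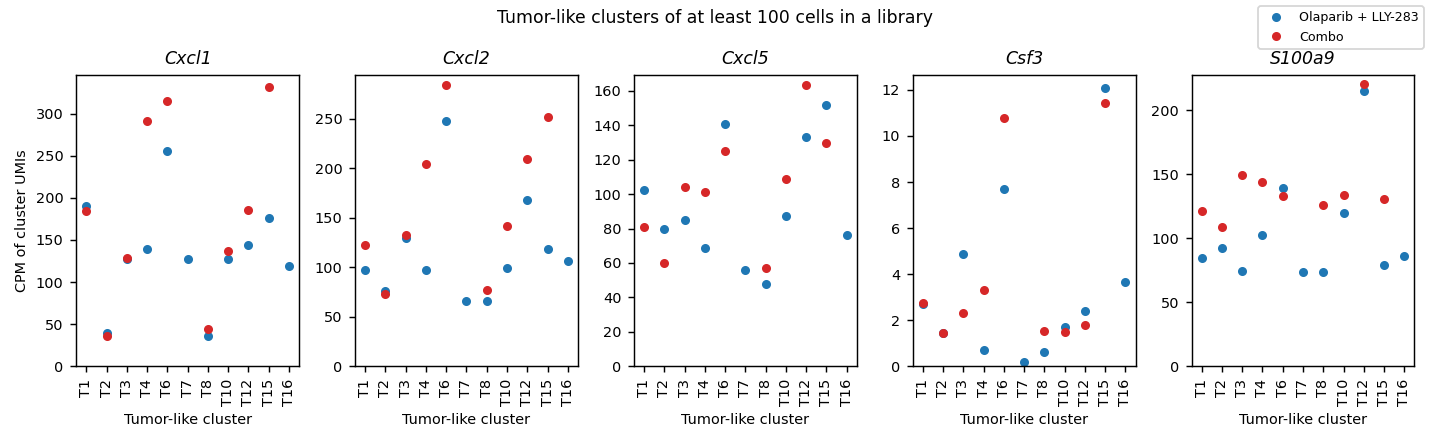
Level of Cxcl1, Cxcl2, Cxcl5, Csf3 and, for comparison, the neutrophil gene S100a9 in tumor-like clusters of at least 100 cells in a library, as CPM of the cluster; each point is 1 cluster in 1 library. T6 and T15 are high for Csf3 in both libraries, while S100a9 is highest in T12.

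The 2 libraries drew their tumor-like cells from the same clusters in different proportions. T15, with the most Csf3, had 143 and 454 cells, and T7, with the least in the dual-inhibitor library, 1171 and 20. Ratios were taken within clusters of at least 20 cells in each library, for genes with at least 20 UMIs in both libraries together, which for Csf3 left out T7 with 2 and 2 UMIs. The ratio of Combo to Olaparib + LLY-283 was above 1 in 8 of 11 clusters for Cxcl1 (median 1.08, range 0.894 to 2.09), in 9 of 11 for Cxcl2 (median 1.17) and in 5 of 11 for Cxcl5 (median 0.888). For Csf3 it was above 1 in 5 of 10 clusters, with a median of 0.975 and a wide range of 0.476 to 4.84. Of these 10 clusters 3 passed 2-fold in either direction. T1 and T2 were among the 5 above 1, with Csf3 ratios of 1.01 and 1.00.

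Cxcl1, Cxcl2 and Cxcl5 had higher means in tumor-like cells that held a Csf3 UMI than in those without one. Only tumor-like cells of at least 5000 UMIs, 8633 of 10860 and 2487 of 2550, were used, each thinned to 5000 UMIs in 1 random draw. Those with a Csf3 UMI (84 and 34) had 1.17 and 3.79 Cxcl1 UMIs on average, against 0.681 and 0.850 in the cells without one. Their mean for Cxcl5 was 1.08 and 1.56 UMIs against 0.429 and 0.450, and for Cxcl2 1.06 and 4.56 against 0.550 and 0.759. For Cxcl3 it was 0.214 against 0.0746 in the dual-inhibitor library and 0.0882 against 0.0917 in the Combo library. Krt8 means differed little, by factors of 1.16 and 1.01. Cells with a Cxcl1 UMI (2913 and 887) likewise had 2.36 and 2.39 times the Cxcl5, 2.18 and 2.76 times the Cxcl2 and 1.03 and 1.10 times the Krt8 of the cells without one. Macrophage-like cells of at least 1000 UMIs, 801 of 994 and 662 of 677, were thinned to 1000 UMIs. Those with a Cxcl1 UMI (212 and 142) had 3.62 and 3.43 times the Cxcl2, 5.20 and 5.06 times the Cxcl3 and 0.480 and 0.638 times the C1qa, a complement gene typical of macrophages. Cells of 1 library are not replicates, and these ratios describe the cells of 2 libraries.

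The receptors Csf3r and Cxcr2 were carried by neutrophil-like cells. Csf3r stood at 339 CPM (287 to 398; 151 UMIs) in the dual-inhibitor library and 919 CPM (876 to 963; 1770 UMIs) in the Combo library, 2.71 times (2.29 to 3.22) higher in the latter. Cxcr2 stood at 539 CPM (473 to 612; 240 UMIs) and 1123 CPM (1076 to 1171; 2163 UMIs), 2.08 times (1.82 to 2.39) higher. For both genes the class that came next was a few myogenic-like cells, with 3 and 11 Csf3r UMIs, and macrophage-like cells had 9.80 and 17.6 CPM of Csf3r and 4.01 and 6.14 CPM of Cxcr2. Krt8 stood in neutrophil-like cells at 375 and 201 CPM, 46.7% and 25.4% of the tumor-like level. The part of RNA from tumor cells in the receptor ratios was not tested.

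Shares of neutrophil-like cells with a receptor UMI followed depth in part. Csf3r was found in 19.5% and 72.1% of the cells with all UMIs and in 14.9% (12.2 to 17.9%) and 34.5% (31.4 to 37.5%) after thinning to 500 UMIs. For Cxcr2 these shares were 28.6% and 74.1%, and 21.6% (18.4 to 25%) and 38.1% (35.1 to 41.3%) after thinning. For comparison, in tumor-like cells the thinned shares were 0.0732% and 0.119% for Csf3r and 0.0887% and 0.0909% for Cxcr2.

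Cxcr4 was spread over immune and endothelial-like cells. In the dual-inhibitor library macrophage-like (71.7 CPM, 161 UMIs), T-like, endothelial-like (64.2 CPM, 14 UMIs), DC-like and neutrophil-like cells (35.9 CPM, 16 UMIs) followed each other with overlapping intervals. In the Combo library neutrophil-like cells had 107 CPM (92.8 to 123; 206 UMIs) and macrophage-like cells 82.1 CPM (75.9 to 88.7; 642 UMIs), with intervals apart. Its 15 endothelial-like cells had 142 CPM (85.6 to 222; 19 UMIs), an interval that overlapped both, and a ratio to the dual-inhibitor library of 2.21 (1.05 to 4.77). The neutrophil-like ratio was 2.98 (1.79 to 5.30) and the macrophage-like ratio 1.15 (0.962 to 1.37). After thinning, 1.85% and 4.98% of neutrophil-like cells carried a Cxcr4 UMI, beside 3.76% and 3.88% of macrophage-like and 0.0373% and 0.0670% of tumor-like cells. Combo neutrophil-like cells with a Cxcr4 UMI at 1000 UMIs (77) had 0.493 times the Cxcl3 and 0.745 times the Cxcl2 of the 785 cells without one, with ratios of 1.03 for Cxcr2 and 1.00 for Csf3r.

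In the neutrophil clusters that both libraries filled, Csf3r was higher in the Combo library in 1 of 2 and Cxcr2 was lower in both. Clusters N3 (376 and 86 cells) and N7 (233 and 42) held most neutrophil-like cells of the dual-inhibitor library, and N2 (9 and 459), N8 (3 and 263) and N15 (5 and 114) most of the Combo library. In N3 Csf3r was 213 and 445 CPM (ratio 2.09) and Cxcr2 363 and 250 CPM (0.690). In N7 Csf3r was 529 and 524 CPM (0.991) and Cxcr2 796 and 508 CPM (0.639). Cxcr4 rested on few counts there, with 6 and 5 UMIs in N3. Among the 5 Combo clusters Csf3r ranged from 445 CPM in N3 to 1364 in N8, and Cxcr2 from 250 in N3 to 1279 in N8.

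**Figure D4:**
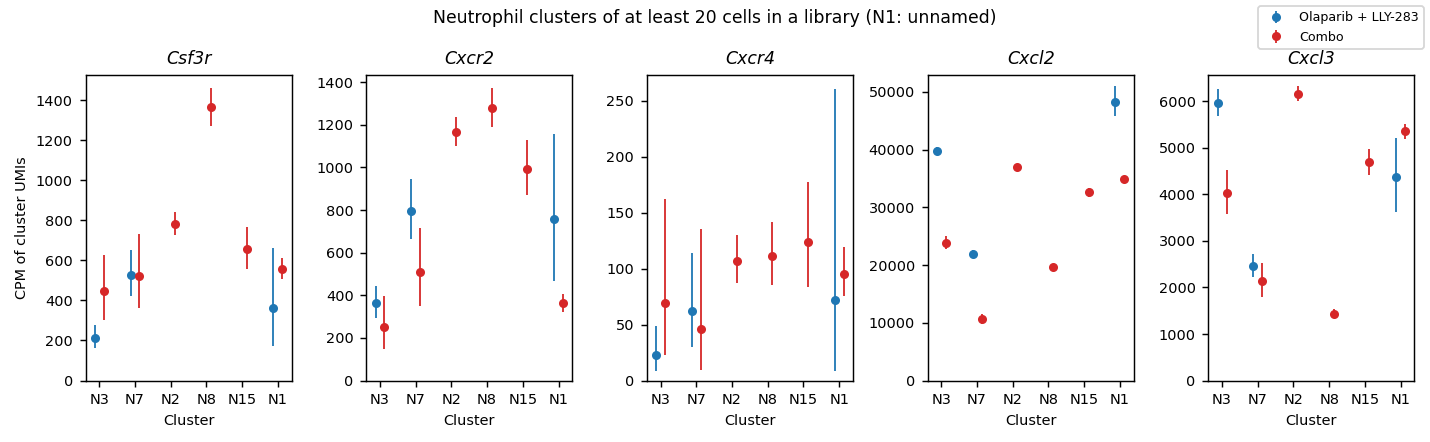
Level of Csf3r, Cxcr2, Cxcr4, Cxcl2 and Cxcl3 in neutrophil clusters of at least 20 cells in a library, as CPM of the cluster, with exact Poisson intervals; N1 is the unnamed cluster. N8, with 3 and 263 cells, is highest for both Csf3r and Cxcr2 and low for Cxcl2 and Cxcl3.

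Among cells of like depth the Csf3r and Cxcr4 ratios were above 1 at both depths, while that of Cxcr2 changed direction. Among neutrophil-like cells of 500 to under 1000 UMIs (585 and 102), Csf3r was 370 and 424 CPM (ratio 1.15, 0.746 to 1.71) and Cxcr2 556 and 381 CPM (0.686, 0.442 to 1.03). At 1000 to under 2000 UMIs (35 and 386) Csf3r was 184 and 1068 CPM (5.82, 2.94 to 13.5) and Cxcr2 482 and 1145 CPM (2.37, 1.54 to 3.86). The Cxcr2 difference between the libraries thus had opposite directions at the 2 depths, although the interval at the lower depth included 1, and the part of depth in it was not tested further. Cxcr4 was 33.6 and 113 CPM at the lower depth (3.36, 1.21 to 8.75; 13 and 8 UMIs). At the higher depth it was 68.9 and 145 CPM (2.10, 0.698 to 10.4; 3 and 93 UMIs), an interval that included 1. Cxcl2 was lower in the Combo library at both depths, at 34501 and 16506 CPM (0.478) and at 34252 and 24900 CPM (0.727), and so was Cxcl3 (0.400 and 0.597). Cxcl1, with ratios of 1.02 and 0.961, and Cxcl5, with 2.28 and 0.362 on few UMIs, had intervals that included 1 at both depths.

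Within neutrophil-like cells the highest levels of Cxcl2 and Cxcl3 and those of Csf3r and Cxcr2 were in different clusters. Low levels did not follow the reverse order, as Combo N3 was lowest for both receptors and Combo N7 lowest for Cxcl2, at 10632 CPM. By cell the difference was small. Combo cells with a Cxcr2 UMI at 1000 UMIs (517) had 0.876 times the Cxcl2 and 0.922 times the Cxcl3 of the 345 without one. N8 of the Combo library, highest for both receptors and led by Retnlg, Pglyrp1 and Lcn2, had the lowest Cxcl3 level of the 5 Combo clusters, 1433 CPM, and N2 had the highest levels of Cxcl3 (6169 CPM) and Cxcl2 (36990 CPM). In the dual-inhibitor library N7 had less Cxcl2 than N3 (21961 against 39782 CPM) and less Cxcl3 (2457 against 5974), and more of both receptors. Unnamed cluster N1 had 48307 and 34848 CPM of Cxcl2, on 28 and 451 cells. Its Cxcr2 stood at 758 and 363 CPM (0.479, 0.307 to 0.785; 21 and 293 UMIs), a ratio opposite in direction to that of neutrophil-like cells. Csf3r stood there at 361 and 556 CPM (1.54, 0.830 to 3.23; 10 and 449 UMIs).

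Cxcl12 was a gene of CAF-like cells. They had 97.6 CPM (80.3 to 118; 111 UMIs) in the dual-inhibitor library and 346 CPM (316 to 378; 488 UMIs) in the Combo library, 3.54 times (2.88 to 4.40) higher, and held 82.8% and 90.4% of all Cxcl12 UMIs. The class that came next stood 21.3 and 130 times lower. A UMI was found in 27.5% and 76.2% of CAF-like cells, and in 5.68% (3.23 to 9.59%) and 12.9% (5.65 to 23.5%) after thinning to 500 UMIs, beside 0.00826% and 0.0193% of tumor-like cells. These thinned intervals overlapped. In the Combo library 1 cell held 129 of the 488 UMIs and 5 cells held 55.9%. Without the 5 cells with the most UMIs in each library the log2 ratio was 1.27 instead of 1.83. In the larger CAF-like cluster, N10 (179 and 44 cells), led by Dpt, Clec3b and Pi16, Cxcl12 was 122 and 405 CPM (3.34), Cxcl5 111 and 241 CPM (2.16) and Cxcl1 451 and 618 CPM (1.37). Neutrophil-like cells held 0 and 1 Cxcl12 UMIs, where 0 of 626 cells allows a share of cells with a UMI of up to 0.479%, which is no limit on cells expressing the gene.

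Members that differed between the libraries by 2-fold or more within a class were counted among those that had 20 UMIs or more in the class. In neutrophil-like cells 3 of 8 members were higher in the Combo library (Csf3r, Cxcr2 and Cxcr4) and 0 lower, where 13% of all 7378 genes were higher, 7.52% lower and 20.5% past 2-fold in either direction. This count leaves out the unnamed cluster N1, where the ratios were 1.54 for Csf3r, 0.479 for Cxcr2 and 1.32 for Cxcr4. In macrophage-like cells 2 of 8 members were lower (Cxcl3 and Cxcl5) and 0 higher, against 2.22% of 11475 genes lower, 3.36% higher and 5.58% in either direction. In CAF-like cells 1 of 5 was higher (Cxcl12) and 0 lower, against 3.39% of 8988 genes higher, 2.14% lower and 5.53% in either direction. In tumor-like cells 3 of 9 were higher (Csf3r, Cxcr4 and Cxcl12) and 0 lower, against 2.89% of 17196 genes higher, 1.58% lower and 4.47% in either direction. All 3 were at low levels there, with 1.11 and 2.37 CPM of Csf3r, 0.671 and 1.46 CPM of Cxcr4 and 0.170 and 0.373 CPM of Cxcl12. Each was also past 2-fold in a class with far more of it. Neutrophil-like cells had 339 and 919 CPM of Csf3r and 35.9 and 107 CPM of Cxcr4, and CAF-like cells 97.6 and 346 CPM of Cxcl12. The part of RNA from these classes in the 3 tumor-like ratios was not tested. The median log2 ratio of the members beside that of all genes was −0.07 and −0.03 in neutrophil-like, −0.21 and 0.07 in macrophage-like, 0.59 and 0.04 in CAF-like and 0.54 and 0.07 in tumor-like cells.

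**Figure D5:**
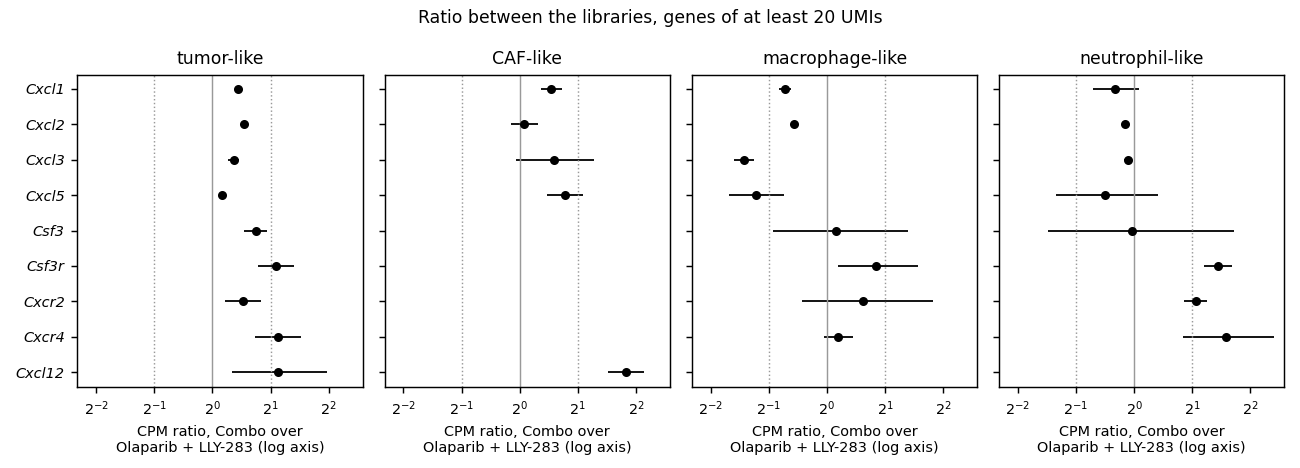
Ratio of the level in the Combo library to that in the dual-inhibitor library for each gene that had 20 UMIs or more, by cell class, on a log axis with exact 95% intervals of counting error; dotted lines mark 2-fold. Csf3r, Cxcr2 and Cxcr4 lie past 2-fold in neutrophil-like cells, Cxcl12 in CAF-like cells, and Cxcl3 and Cxcl5 lie past it in the other direction in macrophage-like cells.

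Other receptors that guide neutrophils were described from a list of 7. In neutrophil-like cells 3 were higher in the Combo library by 2-fold and 0 lower, namely Ltb4r1, a leukotriene B4 receptor (106 and 289 CPM), C5ar1, the receptor of complement C5a (137 and 389 CPM), and Cxcr1, a further CXC receptor (3 and 84 UMIs). Fpr1 and Fpr2, receptors of formyl peptides, stood at 135 and 250 CPM and at 150 and 273 CPM. Of 8 adhesion and exit genes 4 were higher in neutrophil-like cells, Selplg, Itgb2, Mmp9 and Mmp8, and 0 lower. These counts stand beside the same 13% of all genes in that class. Among the 7 known inducers of the ligands, Il1a was higher by 2-fold in neutrophil-like cells (29.2 and 62.3 CPM) and 0 genes passed 2-fold in the other 3 classes, while Il1b, encoding interleukin-1β, was highest in neutrophil-like cells at 11418 and 18286 CPM. Of 9 regulators of the NF-κB and C/EBP families and mRNA decay, Rel was higher in CAF-like cells (6.15 and 15.6 CPM) and Cebpd in neutrophil-like cells (175 and 446 CPM), and none passed 2-fold in tumor-like and macrophage-like cells. Over all genes 3.39% were higher in CAF-like and 13% in neutrophil-like cells.

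Among 5 other colony-stimulating factors and receptors, Csf1r, the receptor of the macrophage growth factor CSF1, passed 2-fold in neutrophil-like cells, at 22.5 and 58.1 CPM beside 372 and 452 CPM in macrophage-like cells, and 0 passed in the other 3 classes. In tumor-like cells C5ar1 and Itgb2 were among the listed genes higher in the Combo library and Dpp4 lower, each at under 10 CPM, and in CAF-like cells Mmp9 was higher (5.28 and 24.8 CPM). Mmp9 was highest in osteoclast-like cells, at 1059 and 2812 CPM, and the part of RNA from them in the CAF-like ratio was not tested. Over all genes 2.89% were higher and 1.58% lower in tumor-like cells, and 3.39% higher in CAF-like cells.

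The neighbors of the ligands on chromosome 5 had sources of their own. Pf4, encoding platelet factor 4, stood at 2297 and 1855 CPM in macrophage-like cells and at 42.7 and 26.0 CPM in neutrophil-like cells. Ppbp was highest in macrophage-like cells (16.0 CPM) and DC-like cells (23.5 CPM) of the respective libraries, and Cxcl15 had 0 and 1 UMI in its leading class. Ackr3, an atypical receptor that takes up CXCL12, was highest in CAF-like cells, as Cxcl12 was, at 245 and 308 CPM. Dpp4, a peptidase that cleaves CXCL12, was also highest there, at 98.5 and 87.2 CPM.

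Genes with the level pattern most like each member were ranked by Pearson's r of log2(CPM + 1) over 16 points, 8 classes in 2 libraries, which share depth and library. For Cxcl2 they were Ccrl2 (0.971), Mcl1 and Clec4e, for Cxcl3 Acod1 (0.932), Wfdc21 and Ccl4, for Csf3r Hdc (0.933), S100a8 and S100a9, and for Cxcr2 Lcn2 (0.932), Klhl2 and Gm37691. Acod1, Wfdc21, Hdc, S100a8, S100a9 and Lcn2 were among the markers that named the neutrophil-like class. For Cxcl12 they were Cdh11 (0.996), Has1 and Fbn2, and for Cxcr4 Dock2 (0.944), Jaml and Atp8b4. Cxcl5 was nearest to Zfr (0.924), Pdgfrb and Tbl1x, Csf3 to Zmat1 (0.909), Wbp1l and Rsad1, and Cxcl1, the member with the weakest likeness, to Fam43a (0.864), Psd3 and Chst1.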

How the data were processed

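Single cells of dissociated EMT6 tumors were sequenced after dead-cell removal by the 10x Genomics 3′ method, 1 library per group. For each gene and cell the authors deposited the raw UMI count. The submitters' processing notes name bcl2fastq 5.0.1, Cell Ranger and Seurat 4.1.0, and the matrix headers name Cell Ranger 6.1.2. Coordinates are from GENCODE M21 and RefSeq (GRCm38.p6).

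The cell filter required 200 genes and a mitochondrial UMI share below 20%. Scrublet's automatic threshold marked 0 cells, so the highest-scoring cells up to the expected rate (0.8% per 1000 cells) were removed, 2055 and 284. After scaling to 10000 UMIs per cell and a log transform, cells were clustered in 2 stages by Leiden (resolution 1.3, 2000 variable genes, 30 principal components, 20 neighbors), with members and pathway genes left out of the variable genes. Each cluster was named for the marker list with the highest mean log2 fold (at least 1, with at least 3 markers over 2-fold). Clusters high in Krt8 and Krt18, over 2-fold above the named clusters, were tumor-like, and shallow clusters without own markers among the 10 leading genes stayed unnamed. Of this classification 4 versions were examined after cluster makeup had been seen and before the members' values, and the fourth was used.

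UMIs were summed per class and library and given as CPM with exact Poisson intervals. Ratios have exact conditional intervals, and shares Clopper-Pearson intervals. A share of 0 is given the upper limit of 3 cells. No test was run with 1 library per group. Named were all 9 members, the 3 most alike genes of each, and the genes of fixed lists past 2-fold with a few further values chosen after they were seen. The value of 1 listed gene is not reported here. The members and lists were chosen with earlier results of these data known. Depth ranges, comparisons within clusters, co-detection and the promoter motif were chosen after class values had been seen. Scripts were tested on simulated data. Analyses ran in scanpy 1.11.5 with leidenalg 0.10.2, igraph 0.11.9 and scikit-learn 1.9.0, under Python 3.11.15 with scipy 1.17.1, numpy 2.4.6, pandas 2.3.3 and matplotlib 3.10.9.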

Additional observations from a re-analysis of the deposited data

Results flagged for a closer look

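Cells with at least 20% mitochondrial UMIs were left out of every comparison, and members with more UMIs there than the limit that a count of 0 allows (3 UMIs) were looked up in both libraries. In the 86 such cells of the dual-inhibitor library the limit was 50.0 CPM. Cxcl2 stood there at 3216 CPM, Cxcl3 at 233 CPM, Cxcr2 at 117 CPM (7 UMIs) and Csf3r at 83.3 CPM (5 UMIs). In the 1586 such cells of the Combo library the limit was 2.15 CPM. There Cxcl2 stood at 964 CPM, Cxcl1 at 82.5 CPM, Cxcl3 at 80.4 CPM, Cxcl5 at 44.5 CPM, Csf3r at 41.6 CPM, Cxcr2 at 36.6 CPM and Cxcr4 at 10.0 CPM. These cells were not assigned to classes, so the source of these UMIs was not tested.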

How the results depend on the processing

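No paired analysis was possible because each group has 1 library, and for the same reason no replicate could be left out. Of the members past 2-fold, each kept its direction under all 12 other settings of filter, doublets, clustering, naming and scaling. In tumor-like cells 3 members passed 2-fold, but 1 with doublets kept and 1 with the mean of per-cell CPM. In CAF-like cells 1 passed, but 3 with doublets kept and 4 with classes from the marker UMIs of each cell. In macrophage-like cells 2 passed, but 1 under these marker classes and 1 with per-cell CPM. In neutrophil-like cells 3 passed, but 5 under the marker classes, which called 5253 and 1424 cells CAF-like. Past 2-fold there were Cxcr2 in 8 of the 12 settings (lowest log2 ratio 0.64), Cxcr4 in 11 (0.03) and Csf3r in 11 (0.66), each lowest with at least 500 genes. The cause of these changes was not tested.

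The neutrophil-like share of the dual-inhibitor library moved from 27.5% to 1.05% with at least 500 genes per cell, a filter that removes shallow cells, to 7.69% with doublets kept, 22.9% at resolution 2.0, 21.1% with members and pathway genes allowed among the variable genes and 6.09% under the marker classes. In the Combo library it moved from 40.5% to 37.6% with at least 500 genes, 23.8% with doublets kept, 38.2% with members allowed, 27.5% under the marker classes and 59.5% with the unnamed neutrophil-gene cluster counted. The number of members with their highest level outside the 4 main classes, 1, was 2 under 10% mitochondrial UMIs, with doublets kept, at resolutions 0.8 and 2.0, with per-cell CPM and without mitochondrial and ribosomal genes, 3 with 20 principal components or with members allowed, 5 with at least 500 genes and 0 without the 5 cells with the most UMIs. With at least 500 genes these were Cxcl2, Csf3, Csf3r, Cxcr2 and Cxcr4. Neutrophil-like cells thus did not lead for Cxcl2, Csf3r and Cxcr2 in at least 1 library under that filter. Beside Csf3, Cxcl1 was outside under 10% mitochondrial UMIs and at resolution 0.8. Cxcr4 was outside with doublets kept, at resolution 2.0, with per-cell CPM and without mitochondrial and ribosomal genes. Both were outside with 20 principal components or with members allowed. The number has no value under the marker classes.

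Among neutrophil-like cells, shares with a UMI at 500 UMIs per cell changed as follows. Values at 1000 UMIs rest only on the cells of at least that depth, 41 and 862, and those without thinning on all cells of the class. Csf3r moved from 14.9% to 19.5% without thinning in the dual-inhibitor library, and from 34.5% to 56.8% at 1000 UMIs and 72.1% without thinning in the Combo library. Cxcr2 moved from 21.6% to 38.0% and 28.6%, and from 38.1% to 61.8% and 74.1%. Cxcr4 moved from 1.85% to 6.69% at 1000 UMIs, and from 4.98% to 9.0% and 14.5%.

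Restrictions to like depth and to single clusters were chosen after seeing the data. In cluster N3 alone 1 member passed 2-fold with at least 20 UMIs. Without a minimum of UMIs, Csf3r kept its direction in 3 of the 4 restrictions and passed 2-fold in 2. Cxcr4 kept it and passed 2-fold in 3, on few counts in N3 and N7, and Cxcr2 in 1. The highest log2 ratios were 2.54 for Csf3r, 1.75 for Cxcr4 and 1.25 for Cxcr2. The log2 ratio of Csf3r, 1.44, turned to −0.013 in cluster N7, that of Cxcr2, 1.06, to −0.54 at 500 to under 1000 UMIs, −0.53 in N3 and −0.65 in N7, and that of Cxcr4, 1.57, to −0.43 in N7.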
